A study of Mus musculus with 10 samples.

Results

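The comparison described here is the difference between 2 generations of male mice in how inguinal white adipose tissue (iWAT) responded to a low-protein diet (LPD). It was taken for each gene as the log2 fold change between the offspring (F1) of LPD-fed and control diet (CD)-fed fathers, minus the log2 fold change between F0 males that ate the LPD or the CD themselves. All 10 libraries of the series entered it, and 13892 of the 21935 protein-coding genes outside the mitochondrial genome had enough exon reads to be tested. The F1 libraries are described as coming from separate mice, and for the F0 libraries only their numbering says so, so the p-values measure the spread between these libraries. All mice were C57BL/6 males. The F0 groups were 2 CD-fed and 2 LPD-fed males aged 10 to 12 weeks. The F1 groups were 3 males of CD-fed fathers (pCD) and 3 males of LPD-fed fathers (pLPD), aged 5 weeks, with 3 different mothers in a group. The mothers and the F1 mice received the CD, so the LPD reached F0 tissue through the mouse's own food and F1 tissue only through the father. Generation, age, own versus paternal diet and library set change together here, and their parts in a difference between F0 and F1 cannot be told apart.

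White adipose tissue stores fatty acids as triglyceride and releases them when other tissues need fuel. Part of these fatty acids is made in the adipocyte itself from glucose, through glycolysis, NADPH supply, chain synthesis and elongation, and the mitochondria of the same cells can oxidize them. The inguinal depot can also take on beige character, in which mitochondria and the uncoupling protein Ucp1 increase and fuel is burned to heat. Diet protein acts on this tissue through amino acid sensing and through hormones, whereas a paternal diet can reach the offspring only by way of the germ line, seminal fluid or the mother.

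The exon reads on all genes numbered 6351075 to 10044546 per library, and those on the protein-coding genes used for the fit 5709515 to 9148069. After scaling of the latter, 3 reads, the floor used here, correspond to 0.329 to 0.512 CPM, the TMM-scaled exon reads of a gene relative to library size, for counting error only. Between pairs of libraries of a group the variance was 4.27 to 13.6 times that of counting error. The pLPD libraries stood apart in read composition. Introns took 40.7%, 41.8% and 48.4% of the reads of protein-coding genes in them, against 36.0% to 37.9% in the other 7 libraries, and the difference of differences of 6.97 percentage points had an exact two-sided permutation p of 0.0333 over 120 relabellings, of which the smallest possible is 0.0167. Mitochondrial rRNA took 13.5% to 18.2% of gene reads in pLPD, 9.29% to 10.5% in pCD, 10.9% and 12.4% in F0 LPD and 9.59% and 9.85% in F0 CD, a difference of differences of 3.88 points with an exact permutation p of 0.25. Counts from pCD replicate 3 and pLPD replicate 1 often lay away from those of the other mice of their group, and the part of these features in the results was not tested beyond the refits given with them.

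**Figure D1:**
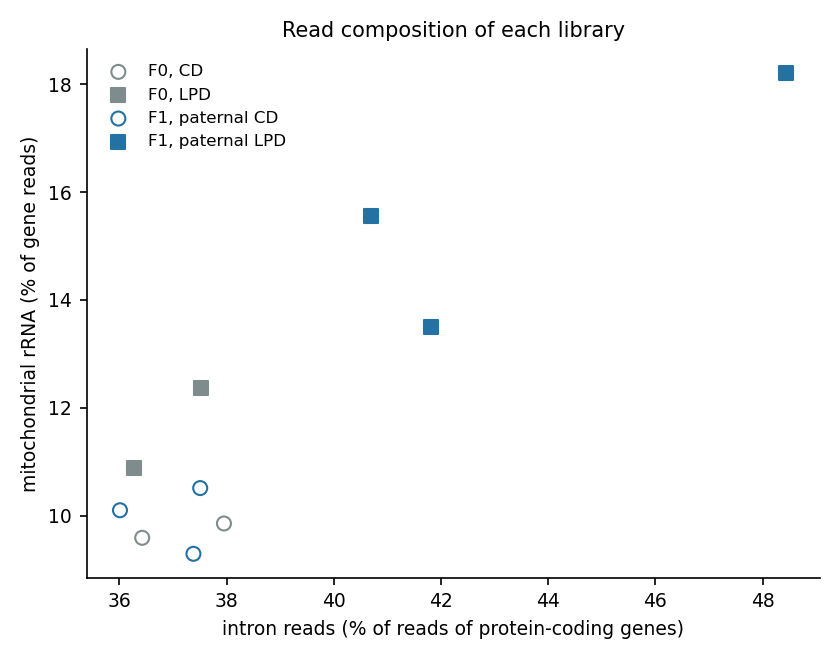
Share of intron reads among the reads of protein-coding genes (x axis, percent) against the share of mitochondrial rRNA among gene reads (y axis, percent), 1 point per library. The 3 pLPD libraries lie at 40.7% to 48.4% intron reads and at 13.5% to 18.2% mitochondrial rRNA, above the other 7 libraries on both axes.

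The response to diet differed between the generations for 187 genes, 1.35% of those tested, at an adjusted p-value under 0.05. The F1 response was the higher in 57 genes (0.41%) and the lower in 130 genes (0.936%), while 757 and 1072 genes passed an unadjusted threshold of 0.05. In the same model, the paternal LPD raised 65 genes (0.468%) and lowered 260 genes (1.87%) in F1, and the LPD raised 114 genes (0.821%) and lowered 68 genes (0.489%) in F0. The typical change was small in both, with a median absolute log2 fold change of 0.15 in F1 and 0.14 in F0. Across the tested genes the F1 and F0 log2 fold changes were close to unrelated, with a Pearson correlation of 0.063 and a Spearman correlation of 0.058. Genes are not independent replicates, and this is a description.

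Each of the 187 genes was given a form from the unadjusted p-value of its own contrast in each generation. In 110 genes (0.792% of those tested) the LPD acted in opposite directions, with a p-value under 0.05 in both generations. In 48 genes (0.346%) it passed in F0 alone, called the F0 form, and in 26 genes (0.187%) in F1 alone, called the F1 form. The remaining 3 genes (Mest, Cd209f and Ntn1) changed in the same direction by different amounts. The test favours opposite directions, because a gene that moved both ways has the larger difference. When genes were taken without regard to the interaction, 444 passed the unadjusted threshold in both generations, of which 212 (47.7%) had opposite directions and 232 the same direction, and over all 13892 genes the opposite share was also 47.7%. With the stricter demand of an adjusted p-value under 0.05 in both generations, 13 genes remained, 11 of them in opposite directions.

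**Figure D2:**
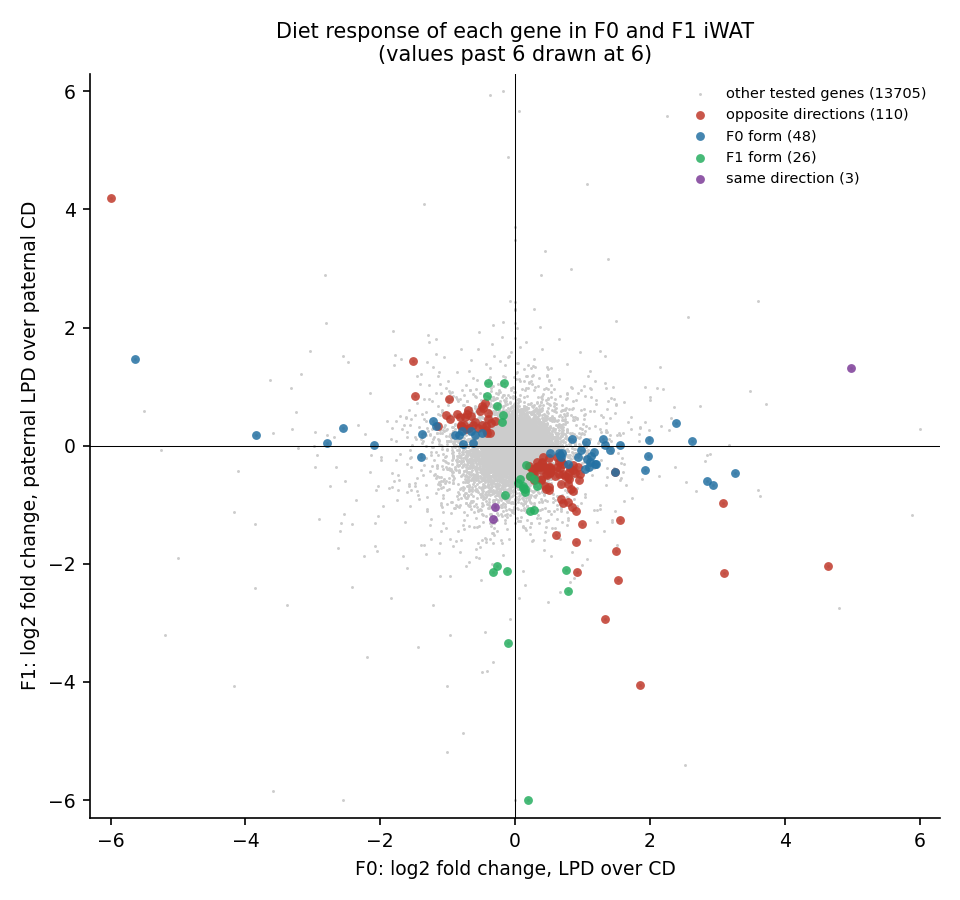
Log2 fold change of each tested gene in F0 (x axis, LPD over CD) and in F1 (y axis, paternal LPD over paternal CD), with values past 6 drawn at 6. The 110 genes with opposite directions lie in the upper left (34 genes) and lower right (76 genes) quadrants, the 48 genes of the F0 form lie along the x axis and the 26 genes of the F1 form along the y axis.

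Among the genes with opposite directions, 34 rose in F1 and fell in F0, with median log2 fold changes of 0.46 and −0.67, and 76 fell in F1 and rose in F0, with medians of −0.48 and 0.63. In 99 of the 110 genes the libraries of the diet groups did not overlap in either generation, which follows largely from how these genes were chosen. The share of such genes over all those tested is not given here, so the count is not a result about them. Reads that fell on introns, which the rule did not use but which come from the same libraries, could be tested for 101 of these genes. They gave an interaction of the same sign in 90 of them, but only 14 passed the threshold in that measure, beside 213 of all 13294 genes tested by it. Agreement in sign can follow from the choice of genes on the same libraries, and its share over all genes is not given here. The largest fitted differences of this form belonged to genes with few reads, and the values below lead with genes that had more.

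Promoter sequences were taken from RefSeq (GRCm38.p6) to place some of these genes in the genome, as the 250 bases before each annotated start, written 5′ to 3′ with the motif found in capitals. A sequence was matched for 138 of the 187 genes and for 10624 of all tested genes. Elovl5 and Plagl1 are shown because they moved in opposite directions to each other in both generations and both hold the E-box CACGTG, and Cyp2f2 because it had the F0 form and holds the nuclear receptor core motif AGGTCA. The Elovl5 window is chr9:77917115-77917364 on the plus strand, the Plagl1 window chr10:13090582-13090831 on the plus strand, inside the longer gene that the files list, and the Cyp2f2 window chr7:27119705-27119954 on the plus strand.
Elovl5: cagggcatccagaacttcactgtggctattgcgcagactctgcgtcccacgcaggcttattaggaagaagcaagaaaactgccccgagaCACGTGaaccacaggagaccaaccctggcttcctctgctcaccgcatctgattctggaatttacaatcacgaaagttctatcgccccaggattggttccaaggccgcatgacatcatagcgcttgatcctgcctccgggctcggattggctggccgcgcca
Plagl1: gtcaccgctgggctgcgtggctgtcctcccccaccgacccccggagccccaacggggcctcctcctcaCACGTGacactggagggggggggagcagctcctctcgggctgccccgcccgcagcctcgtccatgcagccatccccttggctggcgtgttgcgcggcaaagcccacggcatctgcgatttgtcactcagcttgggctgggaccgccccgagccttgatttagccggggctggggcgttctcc
Cyp2f2: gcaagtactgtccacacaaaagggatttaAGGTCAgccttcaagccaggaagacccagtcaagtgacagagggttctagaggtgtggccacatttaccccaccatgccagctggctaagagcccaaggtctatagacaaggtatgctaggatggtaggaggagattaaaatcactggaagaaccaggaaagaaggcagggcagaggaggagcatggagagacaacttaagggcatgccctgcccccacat
The motifs start 161, 182 and 221 bases before the respective start sites. The E-box, which reads the same on both strands, was in the windows of 11 of 87 genes with opposite directions (12.6%), 2 of 34 of the F0 form (5.88%), 1 of 15 of the F1 form (6.67%) and 9.55% of all tested genes. The core motif, searched on both strands, was in 5 of 87 (5.75%), 5 of 34 (14.7%), 5 of 15 (33.3%) and 13.2%. The other motifs searched on both strands were TGACGTCA (2 of the 138 genes, 1.45%, against 2.86% of all), TCACNCCAC (3 genes, 2.17%, against 1.3%), TAGGTCA, which contains the core motif (3 genes, 2.17%, against 2.01%), and TATAAA (13 genes, 9.42%, against 8.38%). These shares describe letters in short windows and were not tested.

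Gpt2, the mitochondrial alanine aminotransferase that joins amino acid and pyruvate metabolism (chromosome 8, 85492576 to 85527560, plus strand), had the smallest interaction p-value. Its level was 233 and 285 CPM in F0 CD and 119 and 116 CPM in F0 LPD. It was 156, 155 and 170 CPM in pCD and 186, 203 and 218 CPM in pLPD. The LPD groups thus lay wholly below the CD groups in F0 and wholly above them in F1, with log2 fold changes of −1.14 ± 0.11 (SE, n = 2 per group) and 0.34 ± 0.09 (SE, n = 3 per group), and the difference was 1.48 ± 0.15 (adjusted p = 0.00214). Intron reads of Gpt2 gave 1.33 (adjusted p = 0.0227). It was the only gene, singled out after its values were seen, that passed in the same direction in all 23 alternative analyses.

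Gpt2 passed the adjusted threshold of its own contrast in F0 but not in F1. The 11 genes with opposite directions that passed it in both generations are given next and were chosen after that result was known. Pltp, the phospholipid transfer protein of plasma lipoproteins (chromosome 2, 164839518 to 164857711, minus strand), stood at 125 and 99.3 CPM in F0 CD and at 177 and 229 CPM in F0 LPD, and at 111, 111 and 130 CPM in pCD against 77.5, 59.3 and 71.3 CPM in pLPD. Its log2 fold changes were 0.86 ± 0.15 in F0 and −0.76 ± 0.13 in F1, a difference of −1.62 ± 0.20 (adjusted p = 0.00535). Deptor, an inhibitor of the kinase mTOR, rose from 298 and 277 to 459 and 501 CPM with the LPD in F0 and fell from 393, 432 and 338 to 280, 268 and 267 CPM with the paternal LPD in F1, a difference of −1.25 ± 0.15 (adjusted p = 0.00535). No library of one diet overlapped with the other diet in either gene. For Deptor the intron reads went the other way, with an interaction of 0.77 (adjusted p = 0.00515), so that exon and intron reads of this gene disagree.

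Apoc1, an apolipoprotein, had F0 levels of 42.9 and 37.2 CPM with the CD and 71.7 and 67.5 CPM with the LPD, and F1 levels of 105, 87.7 and 82.8 CPM in pCD and 72.0, 66.4 and 64.3 CPM in pLPD. The difference was −1.24 ± 0.16 (adjusted p = 0.00564). Cyr61, a secreted matrix-associated protein also known as Ccn1, had a difference of −1.57 ± 0.23 (adjusted p = 0.00864), with 15.2 and 17.1 against 28.8 and 28.8 CPM in F0 and 15.7, 14.4 and 18.1 against 11.5, 7.92 and 9.55 CPM in F1. Both genes rose in F0 and fell in F1 without overlap. Paqr9, a membrane protein of the adiponectin receptor family, had a difference of −1.32 ± 0.19 (adjusted p = 0.00846), and Rmdn3, which links mitochondria to the endoplasmic reticulum, had one of −1.10 ± 0.17 (adjusted p = 0.00903). Cebpb, a transcription factor of adipocyte differentiation, gave −0.96 ± 0.15 (adjusted p = 0.00903), but only 35.8% of its exon reads matched uniquely, which makes its value uncertain, as does the 68.5% of Rmdn3.

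In the other direction, Pygb, a glycogen phosphorylase, fell in F0 from 298 and 319 to 207 and 200 CPM and rose in F1 from 181, 178 and 211 to 235, 251 and 270 CPM. Its difference was 1.0 ± 0.14 (adjusted p = 0.00837), and its intron reads gave −0.11. Zfp185, a LIM domain protein of the actin cytoskeleton, fell in F0 from 24.1 and 25.8 to 12.5 and 12.8 CPM and rose in F1 from 16.0, 14.5 and 11.0 to 18.6, 27.8 and 25.8 CPM. The groups did not overlap in either generation for either gene, and the difference of Zfp185 was 1.78 ± 0.26 (adjusted p = 0.00878). Dennd2d, a regulator of Rab GTPases, had a difference of 1.26 ± 0.18 (adjusted p = 0.00846) and an intron value of 0.73 (adjusted p = 0.0387).

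Capn11, a calpain protease, completed the 11 and rests on few reads. It had 15 and 28 exon reads in F0 CD and 0 in both F0 LPD libraries, which is at least 6.83-fold lower when the LPD libraries are set to the floor of 3 reads each. In F1 it had 0, 0 and 2 reads in pCD and 8, 18 and 11 reads in pLPD, 21.6-fold higher with a 95% exact counting interval of 5.57 to 185. The directions were opposite, and the size of the fitted difference has no use at such counts.

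**Figure D3:**
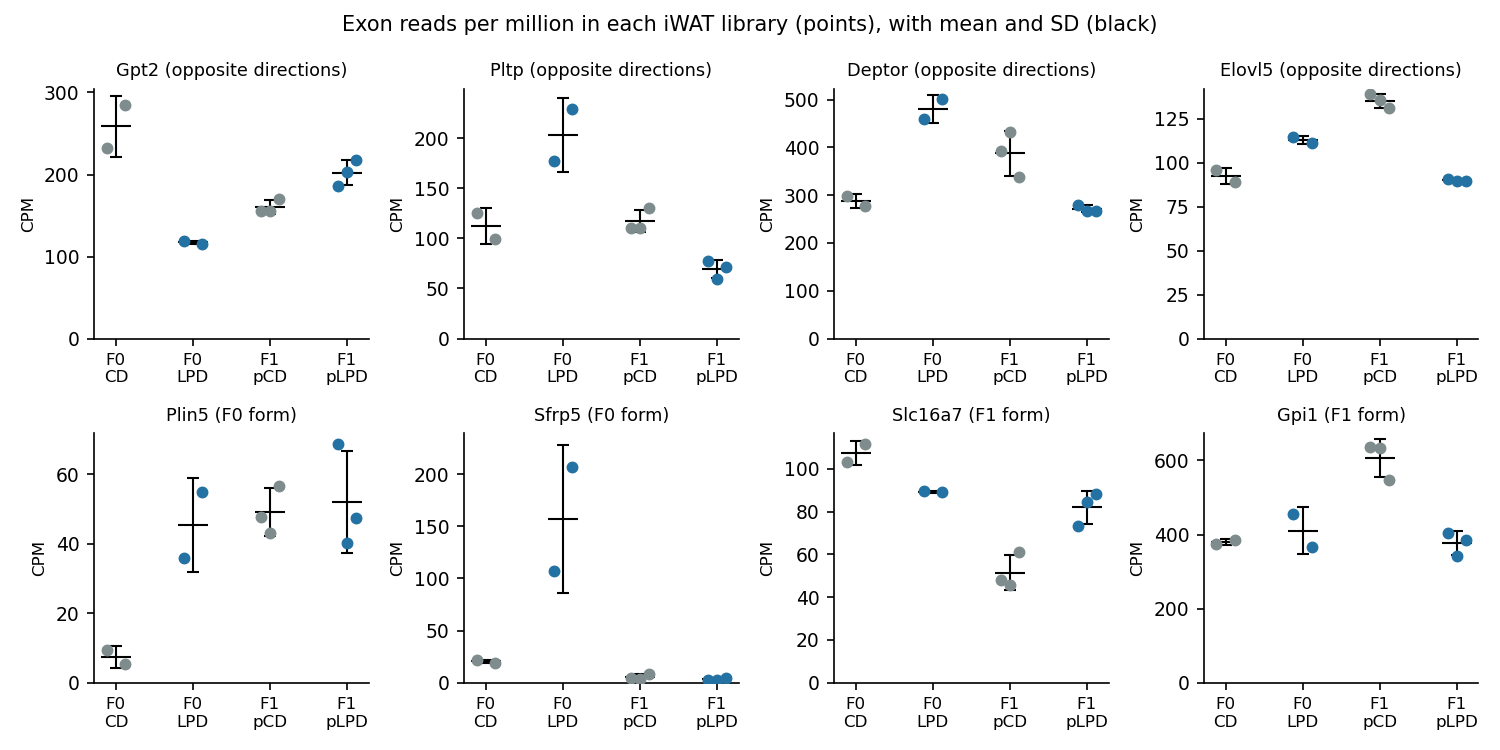
Exon reads scaled to library size (y axis, CPM, linear from 0) of 8 genes in each library (points), with the group mean and SD in black. The panels show 4 genes with opposite directions (Gpt2, Pltp, Deptor, Elovl5), 2 of the F0 form (Plin5, Sfrp5) and 2 of the F1 form (Slc16a7, Gpi1). Plin5 stands at 9.56 and 5.26 CPM in F0 CD and at 35.9 CPM or more in the other 8 libraries.

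By the rule for named genes, the opposite form was also represented by the genes whose weaker response of the 2 generations was largest. Of those that rose in F1, Adcyap1r1, the receptor of the neuropeptide PACAP, had 37.9 and 65.8 CPM in F0 CD, 18.8 and 18.3 CPM in F0 LPD, 34.5, 37.9 and 28.9 CPM in pCD and 41.4, 67.7 and 73.0 CPM in pLPD. Its difference was 2.33 ± 0.35 (adjusted p = 0.00903). Plagl1, an imprinted zinc finger transcription factor whose promoter is shown above, had 51.5 and 69.7 against 36.3 and 38.2 CPM in F0 and 26.0, 28.8 and 17.0 against 42.2, 32.1 and 36.0 CPM in F1. All pLPD values of both genes lay above all pCD values, and all F0 LPD values below all F0 CD values. The difference of Plagl1 was 1.31 ± 0.27 (adjusted p = 0.0355). Sult1a1, a phenol sulfotransferase, gave 1.40 ± 0.29 (adjusted p = 0.0357).

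Of those that fell in F1 and rose in F0, Slc5a7, the choline transporter of cholinergic nerves, had 10.9 and 19.2 CPM in F0 LPD but 0.11 and 1.10 CPM in F0 CD, 0.587 to 1.89 CPM in pCD and 0.169 to 0.448 CPM in pLPD. Crtac1, a cartilage matrix protein, had 15.6 and 19.7 CPM in F0 LPD against 5.64 and 6.79 CPM in F0 CD, and at most 3.38 CPM in any F1 library. Both passed the interaction test (adjusted p = 0.00846 and 0.0408), with F1 levels near the floor. The other 4 genes named by the rule, Dsp, Aldh1a2, Fer1l6 and Slc15a5, had at most 37 reads in every library and at most 5 reads in every pLPD library. For Aldh1a2, which makes retinoic acid, 29 reads in pCD against 3 in pLPD gave a ratio of 8.29 with a 95% exact counting interval of 2.57 to 42.5, and for Fer1l6, 44 against 2 reads gave 18.9 (4.92 to 161).

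Of the genes of glycolysis and fatty acid synthesis that passed, Elovl5, Pfkl and G6pdx had the opposite form and Gpi1 the F1 form. Elovl5, an elongase of polyunsaturated fatty acids (chromosome 9, 77917364 to 77984519, plus strand), had 95.7 and 89.4 CPM in F0 CD, 114 and 111 CPM in F0 LPD, 139, 136 and 131 CPM in pCD and 90.5, 89.8 and 89.6 CPM in pLPD. Its log2 fold changes were 0.29 ± 0.08 in F0 and −0.59 ± 0.07 in F1, a difference of −0.88 ± 0.11 (adjusted p = 0.00535). Pfkl, a phosphofructokinase of glycolysis (chromosome 10, 77986947 to 78010083, minus strand), had 145 and 125 against 200 and 170 CPM in F0 and 487, 485 and 437 against 344, 249 and 257 CPM in F1. The groups were apart in both generations for both genes, and the difference of Pfkl was −1.18 ± 0.20 (adjusted p = 0.0145). G6pdx, the first enzyme of the pentose phosphate pathway and a source of NADPH, had a difference of −0.94 ± 0.21 (adjusted p = 0.0425), with 56.0% of its reads unique and overlapping F1 groups. Intron reads of Elovl5 and Pfkl gave −0.22 and 0.10, neither past the threshold.

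The wider list of fatty acid and triglyceride synthesis did not move as a block between the generations. Of its 31 tested genes, Elovl5 and G6pdx passed the interaction test, both lower in F1, a share of 6.45% beside 1.35% of all genes. The median log2 fold change of the list was −0.42 in F1 and −0.27 in F0, and that of the interaction −0.22, beside 0.0068 for all genes. In F1, 6 of the 31 fell at the adjusted threshold, where 1.87% of all genes did, and in F0 none passed it in either direction. Mlxipl, which encodes the glucose-responsive transcription factor ChREBP, had nearly the same response in both, −0.55 ± 0.14 in F1 and −0.59 ± 0.18 in F0, with a difference of 0.04 ± 0.23 (adjusted p = 0.969). Acly, which supplies acetyl-CoA, had −0.84 ± 0.28 and −0.75 ± 0.34, with a difference of −0.09 ± 0.44 (adjusted p = 0.962).

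Other genes that the study names did not pass. Acacb, an acetyl-CoA carboxylase, had 1043 and 995 CPM in F0 CD, 1268 and 979 CPM in F0 LPD, 2139, 1948 and 2126 CPM in pCD and 1196, 1189 and 1491 CPM in pLPD. The F1 groups were apart and the F0 groups overlapped, and the difference was −0.82 ± 0.19 (adjusted p = 0.0533). Intron reads of Acacb had the opposite sign, with 1.46 (adjusted p = 8.20e-05). Elovl6, an elongase of saturated fatty acids, fell in F1 by 1.40 ± 0.24 on the log2 scale and had 0.15 ± 0.29 in F0 (difference −1.55 ± 0.38, adjusted p = 0.0667). For Tecr, Tbxas1 and Ppp2r5b the difference had adjusted p-values of 0.217, 0.194 and 0.132. A list of 24 genes of cholesterol synthesis and uptake had no gene past the interaction test, and medians of −0.37 in F1 and −0.24 in F0. At the unadjusted threshold 5 of the 24 were lower, where 1072 of all 13892 genes were.

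Of 21 genes of glycolysis and glucose uptake, Pfkl and Gpi1 passed (9.52%, beside 1.35% of all genes), both lower in F1. Gpi1, the isomerase before the phosphofructokinase step, had the F1 form, with 374 and 385 against 455 and 366 CPM in F0 and 637, 635 and 546 against 404, 342 and 386 CPM in F1. Its difference was −0.80 ± 0.16 (adjusted p = 0.0357), and the F0 groups overlapped. The median interaction of the list was −0.11.

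Fatty acid oxidation genes mostly had the lower response in F1, with few past the test. Of 28 tested genes, 25 had a lower response in F1 than in F0, 18 of them at the unadjusted threshold, where 1072 of 13892 genes were lower, but only Hsd17b4 passed after adjustment (3.57% of the list, beside 1.35%). The median log2 fold change was 0.60 in F0 and 0.01 in F1, and that of the interaction −0.54, which intron reads gave as −0.088. In F0, 7 of the 28 rose at the adjusted threshold, where 0.821% of all genes did, and in F1 none passed it in either direction. Hsd17b4, a peroxisomal oxidation enzyme, had 176 and 166 against 241 and 286 CPM in F0 and 245, 241 and 251 against 221, 206 and 219 CPM in F1, a difference of −0.81 ± 0.13 (adjusted p = 0.0114). Acaa2, the thiolase of the mitochondrial pathway, rose in F0 (0.81 ± 0.17, adjusted p = 0.0375) and had 0.05 ± 0.14 in F1, with a difference that did not pass (−0.76 ± 0.22, adjusted p = 0.118). Hadha, Acadvl and Cpt2 had differences of −0.94 ± 0.22, −0.72 ± 0.21 and −0.46 ± 0.13 (adjusted p = 0.0564, 0.119 and 0.121). Cpt1b gave −1.56 ± 0.48 (adjusted p = 0.147), with 12.6% of its reads unique.

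Without pLPD replicate 1, the library with the highest intron share, Acaa2, Acadvl, Hadha and Cpt1b passed the interaction test (adjusted p = 0.0283, 0.0307, 0.0108 and 0.0159). Each of the 4 passed in this 1 of the 10 fits without 1 library and in no other of them. With all 10 libraries, Hadha passed in 10 of 13 other alternatives, and Acaa2, Acadvl and Cpt1b in 5 each. Among these was the exon share as covariate (adjusted p = 0.0095 for Acaa2, 0.0136 for Acadvl, 0.0042 for Hadha and 0.0032 for Cpt1b). The library left out above, pLPD replicate 1, held the highest level of these 4 genes among the pLPD libraries, 503, 760, 891 and 328 CPM. Ppara, the nuclear receptor that drives the pathway, had 89.9 CPM in it and 28.8 and 39.9 CPM in the other pLPD libraries, and its response did not differ detectably between the generations (−0.29 ± 0.51, adjusted p = 0.871). The TCA cycle list (22 genes) had none past the test and a median interaction of −0.20. At the unadjusted threshold 8 of the 22 were lower, where 1072 of all 13892 genes were. The nuclear-encoded respiratory chain (72 genes) had Cox7a1 and Cox8b past it (2.78%, beside 1.35% of all genes), with a median of −0.14.

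Beige and brown adipocyte genes held the largest share of calls among the process lists. Of 21 tested genes, 6 passed (28.6%, beside 1.35% of all genes). Plin5, Otop1, Cox7a1, Cox8b and Acot11 had the lower response in F1, and Ppargc1a the higher. The median log2 fold change was 1.19 in F0 and −0.18 in F1, and that of the interaction −0.68. Plin5, which ties lipid droplets to mitochondria (chromosome 17, 56111601 to 56117596, minus strand), had 9.56 and 5.26 CPM in F0 CD against 35.9 and 55.0 CPM in F0 LPD, and 47.6, 43.2 and 56.5 CPM in pCD against 68.6, 40.2 and 47.3 CPM in pLPD. It rose by 2.63 ± 0.31 in F0 and had 0.08 ± 0.21 in F1 with overlapping groups, a difference of −2.54 ± 0.38 (adjusted p = 0.00878). F0 CD was the one group with a low level, and the F0 LPD level lay near that of both F1 groups.

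The same order of groups was present for Otop1, a proton channel, with 23.3 and 8.43 CPM in F0 CD, 65.4 and 57.4 CPM in F0 LPD, 85.6, 67.3 and 81.3 CPM in pCD and 95.1, 52.2 and 59.2 CPM in pLPD. Cox7a1 and Cox8b, subunits of cytochrome c oxidase in muscle and brown fat, had 14.7 and 9.53 against 39.0 and 28.1 CPM and 79.3 and 43.7 against 159 and 120 CPM in F0. The differences were −2.15 ± 0.43 for Otop1, −1.92 ± 0.36 for Cox7a1 and −1.50 ± 0.30 for Cox8b (adjusted p = 0.0314, 0.0224 and 0.0330), and in F0 no LPD library overlapped with a CD library in any of the 3. Ucp1, the uncoupling protein itself, had 64.1 and 14.8 CPM in F0 CD, 262 and 317 CPM in F0 LPD, 1010, 757 and 1147 CPM in pCD and 1746, 429 and 454 CPM in pLPD. The pLPD libraries fell on both sides of the pCD libraries, and the difference of −3.03 ± 0.83 did not pass (adjusted p = 0.0984). Without pLPD replicate 1, the one at 1746 CPM, it did (adjusted p = 0.00611), the only 1 of the 10 fits without 1 library in which it passed. With all 10 libraries, Ucp1 passed in 5 of 13 other alternatives, among them the exon share as covariate (adjusted p = 0.0022).

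Ppargc1a, the coactivator of mitochondrial genes (chromosome 5, 51454250 to 51567726, minus strand), went against most of the list. Of the 21 genes, 5 had the higher and 16 the lower response in F1, with 2 and 11 at the unadjusted threshold. Ppargc1a was the only higher one past the adjusted threshold. This gene had 21.6 and 25.3 against 14.7 and 21.1 CPM in F0, where all LPD values were lower but the unadjusted threshold was not passed. In F1 it had 20.6, 17.6 and 18.1 against 51.5, 29.7 and 36.0 CPM. It had the F1 form, with a rise of 1.06 ± 0.19 in F1 and a difference of 1.45 ± 0.31 (adjusted p = 0.0381). Its intron reads gave −0.61 (adjusted p = 0.122), and with the exon share as a covariate the difference was 0.94 (adjusted p = 0.255). In this bulk tissue, fewer cells of a type and less RNA per cell cannot be told apart, for this list and for those that follow.

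**Figure D4:**
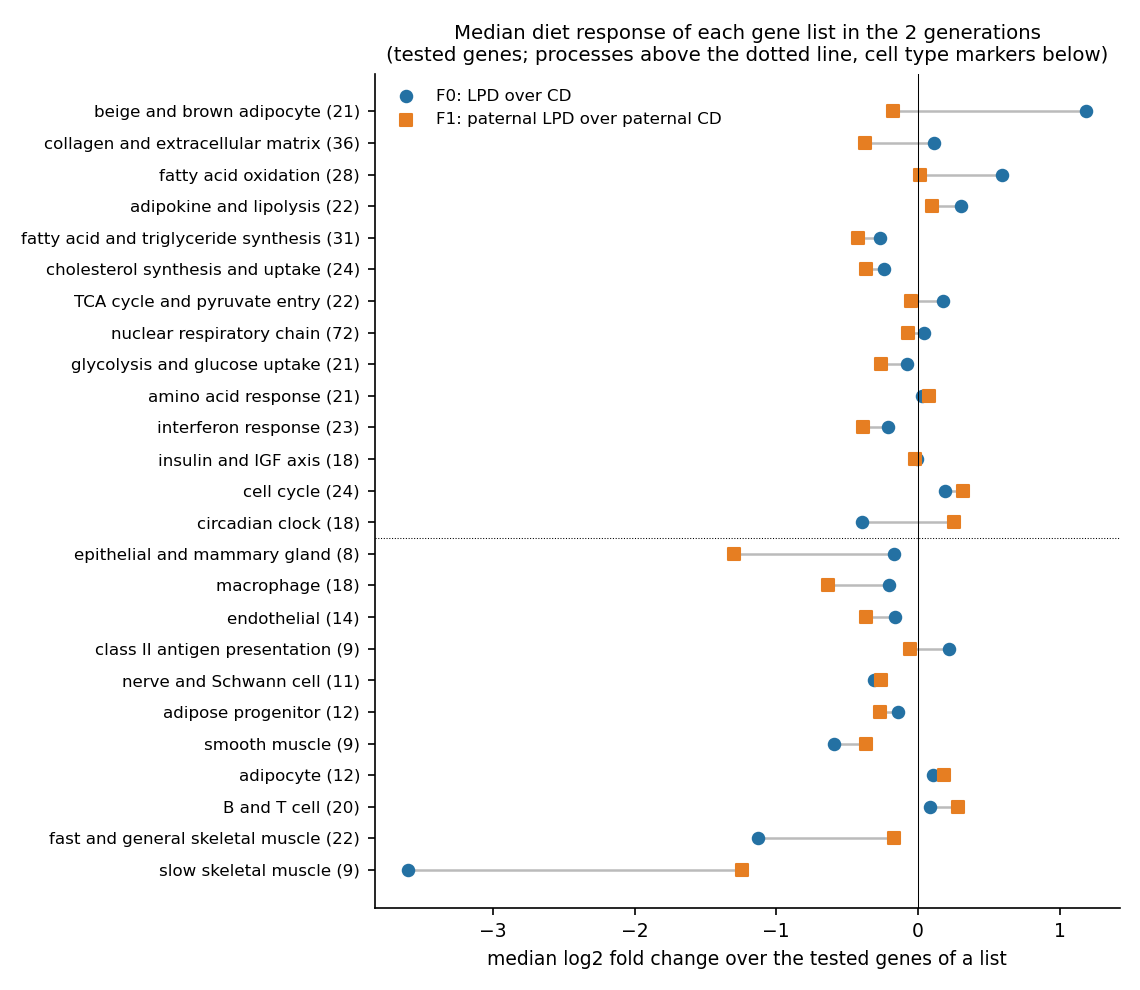
Median log2 fold change over the tested genes of each of 25 lists (number of genes in brackets) in F0 (circles, LPD over CD) and F1 (squares, paternal LPD over paternal CD), joined by a line, with process lists above the dotted line and cell type markers below. The widest gaps between the generations among the process lists are those of the beige and brown adipocyte list (1.19 and −0.18) and the circadian clock list (−0.39 and 0.26).

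Genes of the F0 form numbered 31 that rose in F0, with medians of 1.18 in F0 and −0.17 in F1, and 17 that fell, with medians of −1.18 and 0.19. All 48 had non-overlapping diet groups in F0, which follows largely from how these genes were chosen, and 2 had them in F1. The share over all genes is not given here. A response that did not pass in F1 is not shown to be absent there. Sfrp5, a secreted Wnt antagonist and adipokine, had 21.7 and 19.4 CPM in F0 CD and 107 and 207 CPM in F0 LPD, and 2.84 to 8.37 CPM in the 6 F1 libraries, with overlapping groups. Its difference was −3.60 ± 0.52 (adjusted p = 0.00846). Adcy5, an adenylyl cyclase, had 112 and 104 against 303 and 515 CPM in F0 and 90.3 to 193 CPM in F1, with a difference of −2.34 ± 0.37 (adjusted p = 0.0111).

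Mmp12, the elastase of macrophages, had 0.858 and 0.876 against 7.16 and 9.84 CPM in F0 and at most 0.735 CPM in F1 (difference −3.73 ± 0.74, adjusted p = 0.0307). It rose in F0 and had overlapping groups in F1, with 2 to 5 reads per library. The macrophage list as a whole did not rise in F0, as given below.

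Of the genes of the F0 form that fell, Cyp2f2, a cytochrome P450 (chromosome 7, 27119909 to 27133660, plus strand), had 98.5 and 98.7 CPM in F0 CD against 22.2 and 11.1 CPM in F0 LPD, and 24.0, 26.3 and 34.4 against 27.7, 35.7 and 40.1 CPM in F1. Its difference was 2.85 ± 0.32 (adjusted p = 0.00488). The F0 LPD level lay below that of every F1 library, and F0 CD alone was high. Alb, which encodes albumin, had 135 and 194 against 73.6 and 72.0 CPM in F0 and 43.7 to 75.2 CPM in F1 (difference 1.51 ± 0.25, adjusted p = 0.0154). Trhde, an ectoenzyme that degrades thyrotropin-releasing hormone, had 18.5 and 18 against 7.74 and 7.93 CPM in F0, with a difference of 1.63 ± 0.35 (adjusted p = 0.0395), and its intron reads gave 2.15 (adjusted p = 0.0012).

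Myosin genes of skeletal muscle were also of this form. Myh2, a fast myosin heavy chain, had 111 and 231 against 15.6 and 7.93 CPM in F0 and 1.01 to 2.73 CPM in F1 (difference 4.03 ± 0.85, adjusted p = 0.0381). Myh7, the slow myosin heavy chain, had 157 and 225 reads against 5 and 2 in F0 and 0 to 7 reads in F1, so that no F1 response can be read from it. Summed over the fast and general muscle list, F0 CD held 5119 and 8096 CPM, F0 LPD 2458 and 3345 CPM, pCD 422 to 704 CPM and pLPD 258 to 664 CPM. All 22 tested genes of that list were lower with the LPD in F0, 5 at the adjusted threshold, where 0.489% of all genes were lower. The slow muscle list had a median of −3.60 in F0 and −1.24 in F1, with Myh7 past the interaction test (11.1% of the list, beside 1.35%). The summed level of the slow list was 218 to 290 CPM in F0 and 255 to 301 CPM in F1, nearly all of it Atp2a2, a calcium pump also found outside muscle, while its other 8 genes had at most 1.76 CPM in F1. The part of muscle tissue in the other results was not tested.

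The 20 genes of the F1 form that fell had medians of −0.80 in F1 and 0.15 in F0, and the 6 that rose had 0.76 and −0.23. All 26 had non-overlapping groups in F1, which follows largely from how these genes were chosen. In F0 the groups did not overlap in 14 of them, and no F0 response passed the unadjusted threshold by construction. The shares over all genes are not given here, so neither count is a result about these genes. Slc16a7, a transporter of pyruvate and lactate, rose from 47.9, 45.6 and 60.9 to 73.3, 84.6 and 88.2 CPM in F1 and had 103 and 111 against 89.7 and 89.0 CPM in F0 (difference 0.94 ± 0.17, adjusted p = 0.0193). Gpcpd1, which degrades glycerophosphocholine, rose from 65.9, 61.2 and 62.8 to 85.1, 87.4 and 78.7 CPM (difference 0.60 ± 0.13, adjusted p = 0.0381). Pole, the catalytic subunit of a replicative DNA polymerase, and Popdc2, a cAMP-binding membrane protein, rose by 1.06 ± 0.16 and 0.84 ± 0.17 on the log2 scale, with differences of 1.23 ± 0.24 and 1.26 ± 0.27 (adjusted p = 0.0288 and 0.0395).

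Oxtr, the oxytocin receptor, fell in F1 from 59.7, 51.9 and 19.7 to 9.63, 10.3 and 10.6 CPM and had 16.9 and 16.3 against 20.7 and 35.4 CPM in F0. The difference was −2.85 ± 0.52 (adjusted p = 0.0213), and intron reads gave −3.90 (adjusted p = 0.00548). With the exon share as a covariate it was −2.51 and no longer passed (adjusted p = 0.168). The pCD mice were spread, with replicate 3 near the F0 levels, yet above all pLPD mice. Hephl1, a copper ferroxidase, fell from 71.7, 84.6 and 59.9 to 15.2, 14.1 and 20.0 CPM (difference −1.81 ± 0.37, adjusted p = 0.0334). Ttc25, a protein of motile cilia, fell from 27.6, 26.6 and 25.0 to 4.56, 7.17 and 7.51 CPM (difference −1.77 ± 0.37, adjusted p = 0.0357). The F0 values of Hephl1 and Ttc25 overlapped between diets, and their pLPD values lay below every pCD value. Kcng4, a potassium channel subunit, had 44 to 88 reads in pCD and 3 to 9 in pLPD (difference −3.23 ± 0.58, adjusted p = 0.0200).

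Extracellular matrix genes had the lower response in F1 for 29 of 36 genes tested. At the unadjusted threshold 21 were lower, where 1072 of all 13892 genes were, and 3 passed after adjustment (8.33% of the list, beside 1.35%). The median log2 fold change was −0.37 in F1 and 0.12 in F0, and that of the interaction −0.55. Sparc, a collagen-binding glycoprotein and one of the highest of these genes, had 1649 and 1346 against 2332 and 3389 CPM in F0 and 3428, 3973 and 2856 against 2574, 2649 and 2730 CPM in F1. It had the opposite form without overlap, and the difference was −1.30 ± 0.24 (adjusted p = 0.0224). Bgn, the proteoglycan biglycan, had a difference of −0.87 ± 0.18 (adjusted p = 0.0381) and the same form, and Mfap4, a microfibril protein, the F1 form with 28 to 47 reads in pCD against 4 to 9 in pLPD. In F1, 9 of the 36 genes fell at the adjusted threshold, where 1.87% of all genes did. With the exon share as a covariate none of the 3 genes passed (adjusted p = 0.129 for Sparc, 0.149 for Bgn and 0.144 for Mfap4), and the median of the list was −0.29.

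Markers of macrophages fell with the paternal LPD in F1, 13 of 18 at the adjusted threshold beside 1.87% of all genes, and none passed in F0. The medians were −0.63 in F1 and −0.20 in F0. The difference itself passed for 1 gene (5.56% of the list, beside 1.35%), Adgre1, an adhesion receptor on the macrophage surface. It had 34.6 and 32.4 against 33.4 and 35.9 CPM in F0 and 37.5, 39.3 and 37.9 against 24.2, 24.4 and 25.4 CPM in F1, a difference of −0.68 ± 0.14 (adjusted p = 0.0357). The summed level of the list was 1628 and 1723 CPM in F0 CD, 1469 and 1563 CPM in F0 LPD, 1555 to 1922 CPM in pCD and 1077 to 1277 CPM in pLPD. Its part in the results for Mmp12 and for the matrix genes was not tested.

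Among the defining markers of the adipocyte itself, which were present at high level in all libraries and summed to 25941 to 42209 CPM, 3 of 12 passed (25.0%, beside 1.35% of all genes), all with the higher response in F1. Cfd (adipsin), Retn (resistin) and Car3 (carbonic anhydrase) are secreted or abundant adipocyte products. Cfd had 7371 and 8136 against 4681 and 4179 CPM in F0 and 4983, 5675 and 6927 against 6237, 7282 and 8700 CPM in F1, a difference of 1.15 ± 0.24 (adjusted p = 0.0357). Retn had 812 and 999.7 against 511 and 544 CPM in F0 and 591, 661 and 484 against 581, 670 and 808 CPM in F1 (1.03 ± 0.22, adjusted p = 0.0399), and Car3 gave 0.98 ± 0.22 (adjusted p = 0.0491). All of them were lower in F0 LPD without overlap, and all overlapped between the F1 groups. These 3 were the only genes of the 12 that were lower with the LPD in F0, and the other 9 were higher. Over the 12 genes the median log2 fold change was 0.11 in F0 and 0.18 in F1. The interaction was above 0 in 7 and below 0 in 5, with a median of 0.09.

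A response that the generations shared in direction was that of Mest, an imprinted gene that marks expansion of adipose tissue (chromosome 6, 30723547 to 30748465, plus strand). It had 24.1 and 12.5 CPM in F0 CD and 376 and 775 CPM in F0 LPD, and 15.6, 21.7 and 22.6 CPM in pCD against 62.3, 41.1 and 46.7 CPM in pLPD. It rose in both, by 4.98 ± 0.36 and 1.32 ± 0.30 on the log2 scale (adjusted p = 6.07e-05 and 0.0368), and the F0 rise was the larger by 3.66 ± 0.46 (adjusted p = 0.00535). Of its exon reads, 77.5% were unique. With Cfd, Retn and Sfrp5, Mest made up the 4 of 22 adipokine and lipolysis genes that passed (18.2%, beside 1.35% of all genes). There were 2 in each direction, and the median interaction was −0.29.

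Clock genes had the higher response in F1 for 14 of 18 genes. At the unadjusted threshold 9 were higher and 4 lower, where 757 and 1072 of all 13892 genes were. After adjustment 1 passed (5.56% of the list, beside 1.35% of all genes). The median log2 fold change was 0.26 in F1 and −0.39 in F0. Nr1d1, the repressor REV-ERB alpha, had 178 and 209 against 152 and 142 CPM in F0 and 59.7, 74.9 and 81.2 against 127, 90.9 and 99.0 CPM in F1 (difference 0.95 ± 0.21, adjusted p = 0.0425). The activators of the clock stood on the other side, with interactions of −1.86 for Arntl, −3.11 for Npas2 and −0.73 for Clock (adjusted p = 0.128, 0.197 and 0.165), none past the threshold. The pCD group was split in these genes. Arntl had 35.0 and 37.2 CPM in pCD replicates 1 and 2 but 11.9 CPM in replicate 3, where the pLPD libraries had 9.21 to 16.0 CPM, and Dbp had 26.3 and 18.9 CPM but 119 CPM, where the pLPD libraries had 63.3 to 119 CPM. Without pCD replicate 3 the median interaction of the list was 1.203, beside 0.86 with all libraries. The time of day of tissue collection is not given in the sources used here, and its part was not tested.

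In the amino acid response list, which holds ATF4 targets and amino acid transporters, Cebpb was the 1 gene of 21 past the test (4.76%, beside 1.35% of all genes). The median interaction was 0.0062, beside 0.0068 for all genes. The insulin and IGF axis (18 genes), cell cycle (24) and interferon response (23) had none past it, with medians of 0.13, 0.17 and 0.09 and with 4, 1 and 2 genes past the unadjusted threshold in either direction. Over all 13892 genes, 757 were higher and 1072 lower at that threshold. Igfbp2, a binding protein of insulin-like growth factors, had 0.368 to 1.02 CPM in F0 and 0.587 to 4.04 CPM in F1, and a difference of 0.63 ± 0.88 (adjusted p = 0.829). Of 19 genes taken from those the study names, 2 passed, Elovl5 and Pfkl, beside 1.35% of all genes. The study named these genes from the same data, so the count is a description. Peli1 and Hmgb2 did not (adjusted p = 0.122 and 0.515), the latter with 25.3% of its reads unique.

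Markers of other cell types of the fat pad had few calls. Synpo2, an actin-binding protein, was the 1 of 9 smooth muscle genes past the test (11.1%, beside 1.35% of all genes). It had 213 and 213 against 359 and 534 CPM in F0 (difference −1.30 ± 0.29, adjusted p = 0.0454). All 14 endothelial genes had the lower response in F1, with a median of −0.26 and none past the test, 3 at the unadjusted threshold. None of the B and T cell (20), class II antigen presentation (9), epithelial and mammary gland (8), adipose progenitor (12) and nerve and Schwann cell (11) genes passed, with median interactions of 0.28, −0.25, −1.40, −0.05 and −0.07 and with 4, 2, 2, 0 and 1 genes past the unadjusted threshold. The 4 B and T cell genes were higher in F1 and the 3 endothelial genes lower, where 757 and 1072 of all 13892 genes were. The epithelial median rests on low levels, and the 8 genes were those of 18 that passed the read filter.

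The number of calls depended on single libraries. Leaving out 1 library at a time gave 16 to 406 genes past the test, and 14 of the 187 genes passed in each of the 10 refits. All 187 had the same sign of the difference in each refit, which follows largely from their choice on these same libraries. The fewest calls came without F0 CD replicate 2 (16 genes, 14 of them shared with the 187) and without F0 LPD replicate 2 (44, 40 shared), and the most without pCD replicate 3 (406, 184 shared). Without pLPD replicate 1, the library with 48.4% intron reads, 264 genes passed, 166 of them shared. With the exon share added to the model, 163 genes passed, of which 71 were among the 187, so that most calls were lost. All 187 had the same sign there, with the same limit.

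**Figure D5:**
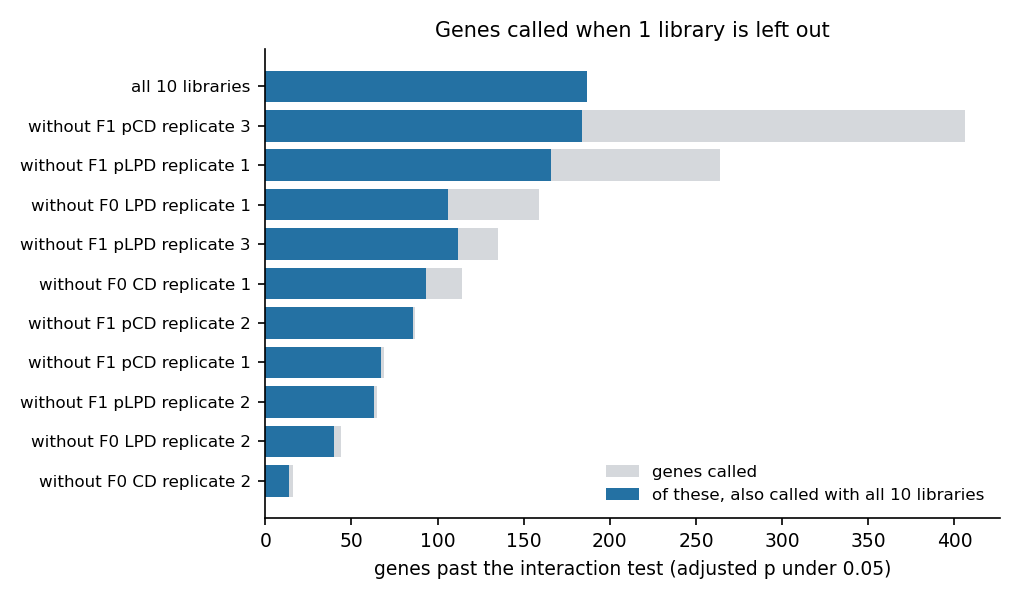
Number of genes past the interaction test (x axis) with all 10 libraries and when each library is left out in turn, with the genes also called with all libraries in blue. The count runs from 16 without F0 CD replicate 2 to 406 without pCD replicate 3.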

How the data were processed

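Total RNA of iWAT was depleted of rRNA and sequenced in paired reads from directional libraries, and the authors mapped the reads to mm10 and counted them per gene with CLC Genomics Workbench, without pooling of replicates. The deposited tables hold read counts per gene (exon, intron, unique and total reads) and RPKM, which the authors computed from exon reads, gene length and mapped reads. The strand setting and the treatment of reads with several matches are not given in the sources used here. Exon counts of protein-coding genes outside the mitochondrial genome were filtered (filterByExpr), scaled by TMM and fitted with edgeR 4.0.16 (R 4.3.3, limma 3.58.1) to the 4 groups in 1 quasi-likelihood model. The contrast (F1 pLPD minus pCD) minus (F0 LPD minus CD) was tested two-sided with Benjamini-Hochberg adjustment over all tested genes, at 0.05. Each SE was derived as the absolute log2 fold change over the root of its F statistic. CPM denotes exon reads scaled to the TMM library size, and depths are given with the results. The comparison, its genes and the 25 gene lists were chosen with earlier results of these data known. Named genes were, per form and sign, up to 6 with the largest response (mean of at least 1 CPM, at least 80% unique reads, and groups apart), 19 genes that the study names, up to 3 per list with the smallest p, and Mest. Some of these genes are not reported here. Alternatives were a likelihood ratio test, DESeq2 1.42.0 and its size factors, no or a stricter filter (10 reads in every library), the replicate block, unique reads, intron and all gene reads, limma-trend on log2(RPKM + 0.1), voom with quality weights, all gene types, the exon share as covariate, forms by adjusted p and each library left out. The fits were tested on simulated data. Promoter letters came from RefSeq (GRCm38.p6).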

Additional observations from a re-analysis of the deposited data

Results flagged for a closer look

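The response to the LPD differed between the generations by the test of the difference itself for 57 genes with the higher and 130 genes with the lower response in F1. The values that follow are log2 differences, F1 response minus F0 response, of the genes named in the text that passed.

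Genes with opposite directions and the higher response in F1 were Adcyap1r1 (2.33), Capn11 (11.4), Car3 (0.976), Cfd (1.15), Dennd2d (1.26), Gpt2 (1.48), Nr1d1 (0.947), Plagl1 (1.31), Pygb (1.0), Sult1a1 (1.40) and Zfp185 (1.78). Those with the lower response in F1 were Aldh1a2 (−4.26), Apoc1 (−1.24), Bgn (−0.868), Cebpb (−0.964), Crtac1 (−3.29), Cyr61 (−1.57), Deptor (−1.25), Dsp (−5.26), Elovl5 (−0.876), Fer1l6 (−5.91), G6pdx (−0.943), Hsd17b4 (−0.811), Paqr9 (−1.32), Pfkl (−1.18), Pltp (−1.62), Rmdn3 (−1.10), Slc15a5 (−3.80), Slc5a7 (−6.68) and Sparc (−1.30). The values of Capn11, Slc5a7, Fer1l6, Dsp, Aldh1a2, Slc15a5 and Crtac1 rest on few reads in at least 1 group.

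Of the F0 form, the response was higher in F1 for Alb (1.51), Cyp2f2 (2.85), Myh2 (4.03), Myh7 (7.12), Retn (1.03) and Trhde (1.63), and lower for Adcy5 (−2.34), Cox7a1 (−1.92), Cox8b (−1.50), Mmp12 (−3.73), Otop1 (−2.15), Plin5 (−2.54), Sfrp5 (−3.60) and Synpo2 (−1.30). Of the F1 form, it was higher in F1 for Gpcpd1 (0.60), Pole (1.23), Popdc2 (1.26), Ppargc1a (1.45) and Slc16a7 (0.941), and lower for Adgre1 (−0.683), Gpi1 (−0.797), Hephl1 (−1.81), Kcng4 (−3.23), Mfap4 (−3.25), Oxtr (−2.85) and Ttc25 (−1.77). Mest (−3.66) changed in the same direction in both generations. The values of Myh7, Myh2, Mmp12, Mfap4 and Kcng4 also rest on few reads in at least 1 group.

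Among measures outside gene counts, the intron share of the reads of protein-coding genes rose by 6.97 percentage points more with the diet in F1 than in F0 (exact permutation test, p = 0.0333). The share of mitochondrial rRNA was at least 10.9% in the LPD libraries of F0 and at least 13.5% in the pLPD libraries of F1, in each generation above the highest control library (9.85% and 10.5%). The groups of 2 or 3 libraries were too small for a check of single values that stand apart.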

How the results depend on the processing

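All 187 genes kept the sign of the difference in each fit without 1 library, which follows largely from their choice on these same libraries. The number past the threshold did not hold. Without 1 library the genes higher in F1 numbered 4 to 134, those lower 12 to 272, those with opposite directions 12 to 209, those of the F0 form 2 to 77 and those of the F1 form 1 to 113. In the same order, the likelihood ratio test gave 176, 351, 209, 170 and 144 genes, no filter 149, 341, 215, 152 and 119, voom with quality weights 118, 263, 202, 104 and 71, and limma-trend on log2(RPKM + 0.1), which shifted the median of all genes by −0.10, 13, 82, 63, 18 and 12. DESeq2 gave 111 higher, 252 lower, 125 of the F0 form and 88 of the F1 form. Intron reads gave 114 higher and 86 of the F0 form, and shared 22 calls with exon reads. The exon share as covariate gave 163 calls with 16 of the F0 form and 10 of the F1 form, and shared 71 with the 187: 22 of 34 higher and 30 of 76 lower genes of the opposite form, 9 of 17 and 6 of 31 of the F0 form, and 2 of 6 and 1 of 20 of the F1 form. Forms set by adjusted p-values gave 11 opposite and 59 of the F1 form. The cause of these changes was not tested.

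Intron reads reversed the difference of Acaa2 (0.22), Acacb (1.46), Acadvl (0.10), Cpt2 (0.062), Deptor (0.77), Hmgb2 (−1.48), Mlxipl (−0.26), Pfkl (0.10), Plagl1 (−0.31), Ppargc1a (−0.61), Pygb (−0.11), Rmdn3 (0.20) and Tecr (0.28), and the medians of the TCA cycle (0.13), respiratory chain (0.20), cholesterol (0.12), slow muscle (−0.13) and nerve (0.16) lists. All gene reads reversed Igfbp2 (−0.052) and Mlxipl (−0.029), limma-trend Mlxipl (−0.062), and the exon share covariate Acly (0.48) and the medians of fatty acid and triglyceride synthesis (0.015), cell cycle (−0.011) and nerve (0.13). The stricter filter reversed the epithelial median (0.040). Without 1 library, the difference reversed in 4 of 10 fits for Acly (range −0.52 to 0.52), in 4 for Mlxipl (−0.17 to 0.28), in 1 for Ppara (−0.90 to 0.010) and in 4 for the nerve median (−0.19 to 0.081). Medians near 0 crossed it for the interferon (−0.23 to 0.26), amino acid (−0.12 to 0.10), adipocyte (−0.061 to 0.24), progenitor (−0.074 to 0.021) and smooth muscle (−0.14 to 0.19) lists. Apart from Deptor and Acacb in intron reads, none of the reversed gene values passed the threshold.

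With the replicate block 262 genes passed, 163 of them among the 187. The libraries share only a number, so the block is given as an alternative alone. The correlations of deviations from the group mean between same-numbered libraries were 0.065 in F0 and −0.019, −0.069 and −0.031 in F1. They cannot show whether samples were paired, because deviations within a group cancel. With 2 libraries per F0 group, differently numbered libraries give the same value with the sign turned (−0.065).

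With 2 mice per F0 group, the F0 responses were the less precise, and levels near the floor of 3 reads give no response that can be read.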
